A study of Mus musculus with 15 samples.

Results

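The genes described here were the 58 genes that the authors' deposited table placed in its class C, apart from cytokine, chemokine, receptor, immediate early and other symbols that were set aside by name. Class C held 98 of the 560 genes with a class, and 40 of them were set aside. The class was taken as deposited. Its basis is not given in the sources used here, and it was treated as resting on chromatin values. Whether values of the other fractions entered it is not known. Every one of the 58 had a chromatin RNA value at least 5.09-fold above its unstimulated value. The change of chromatin RNA with time is therefore given as a description and was not tested. Chromatin libraries do enter the later comparisons between fractions. They also enter the estimate of spread in the later comparison of late and early libraries. The working name for these genes was rapid and sustained induction, and how far the data bore out the second word depended on the reads counted. Over whole genes, 50 of the 58 were highest at 30 min in chromatin RNA and 29 of the 58 held at least 50% of their highest level at 120 min. Over exons alone, 34 of the 56 genes with exon values were highest there at 30 min, 17 were highest at 120 min, and 43 of the 56 held at least 50% at 120 min.

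RNA was sequenced from bone marrow-derived macrophages of C57BL/6 mice of mixed sex, grown with the growth factor M-CSF. Cells were unstimulated or had received lipid A at 100 ng/ml, a Toll-like receptor 4 ligand that anchors lipopolysaccharide in bacterial membranes, for 15, 30, 60 or 120 min. All cells shared the strain and the culture, and the labels name no mutation or transgene. Each time had a chromatin fraction (RNA of the chromatin pellet), a nucleoplasmic fraction (RNA of the soluble nuclear lysate) and a cytoplasmic fraction, for 15 libraries in all. No combination of fraction and time was replicated, so differences between times have no replicate check, and intervals cover counting error only.

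Toll-like receptor 4 signals through adaptors to NF-kappaB and to MAP kinases, and genes with poised promoters answer it before new proteins are made. RNA at the chromatin pellet holds transcripts that are still being made or spliced. Such RNA is released into the nucleoplasm after splicing and polyadenylation, and the cytoplasm collects the finished mRNA. Whole-gene RPKM (reads scaled to gene length and to library depth) counts reads over exons and introns together, while exon RPKM counts exons only.

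Libraries held 38.8 to 52.3 M reads in chromatin, 24.5 to 31.4 M in nucleoplasmic and 15.6 to 19.9 M in cytoplasmic RNA (M, mega). Of 12 macrophage markers 10 were listed, with a summed exon RPKM of 1254 to 2013 in chromatin, 9012 to 13193 in nucleoplasmic and 1199 to 2582 in cytoplasmic libraries. Markers of neutrophils (7 of 10 listed) summed to 7.95 to 19.5 in chromatin, 34.8 to 44.6 in nucleoplasmic and 32.3 to 69.2 in cytoplasmic RNA. T cell markers (3 of 10) reached at most 118.7, B cell markers (3 of 8) at most 37.4, dendritic cell markers (1 of 7) at most 1.30 and stromal markers (1 of 8) at most 1.80, and of 7 erythroid markers 0 were listed. The part of other cells in the values below was not tested, and in bulk RNA a change in the number of expressing cells and in RNA per cell cannot be told apart.

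The deposited promoter type was CpG for 35 of the 58 genes (60.3%) and LCG for 23. Across all classes 55.4% were CpG, with 71.4% in class B and 48.5% in class D. RefSeq promoter windows (build GRCm38.p6) were found for 48 of the 58 genes, and the 250 bases before the start were read. Genes without a window were Skil, Ehd1, Tgm2, H2-Q8, Niacr1, Rgs1, Htra4, Arl5c, Gm614 and LOC624853. The median ratio of observed to expected CG dinucleotides was 0.61 over the 31 CpG genes and 0.30 over the 17 LCG genes, against 0.74 over 7989 genes of the exon table.

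The windows were searched on both strands for letters known from binding sites of the factors that lipid A activates. A strict NF-kappaB form, GGG followed by any 2 bases and TTTCC, was present for 1 of 48 genes (2.08%), against 1.87% of the genes of the exon table. The looser GGG followed by any 5 bases and CC, of which the strict form is a special case, was present for 39 of 48 (81.2%) against 66.4%. TGAGTCA or its reverse complement TGACTCA, the AP-1 form, was present for 3 of 48 (6.25%) against 3.93%, and all 3 genes had LCG promoters. Over all genes with a class the shares of these forms, in the same order, were 4.91%, 66.8% and 9.11%. They were 0%, 78.3% and 4.35% in class B and 9.86%, 64.8% and 11.3% in class D. The windows below are shown because they hold these letters or, for Marcksl1, as an example of a CpG promoter. The Tank window was chosen by the rule for the strict form, and the other windows were added after the values were seen. The capitals mark the strict NF-kappaB letters in Tank at chr2:61592847-61593096 on the plus strand, the AP-1 letters in Csrnp1 at chr9:119983024-119983273 on the minus strand and in Sele at chr1:164047984-164048233 on the plus strand, and every CG in Marcksl1 at chr4:129513331-129513580 on the plus strand.
Tank: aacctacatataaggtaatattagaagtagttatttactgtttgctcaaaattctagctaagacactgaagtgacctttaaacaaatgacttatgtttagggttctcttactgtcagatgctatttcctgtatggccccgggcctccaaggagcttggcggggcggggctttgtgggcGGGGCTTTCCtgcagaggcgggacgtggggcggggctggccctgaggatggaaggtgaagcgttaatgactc
Csrnp1: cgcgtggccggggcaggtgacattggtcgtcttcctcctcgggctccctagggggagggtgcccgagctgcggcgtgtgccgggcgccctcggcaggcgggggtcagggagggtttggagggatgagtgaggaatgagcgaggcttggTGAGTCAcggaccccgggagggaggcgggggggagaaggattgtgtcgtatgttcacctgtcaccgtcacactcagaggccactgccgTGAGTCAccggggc
Sele: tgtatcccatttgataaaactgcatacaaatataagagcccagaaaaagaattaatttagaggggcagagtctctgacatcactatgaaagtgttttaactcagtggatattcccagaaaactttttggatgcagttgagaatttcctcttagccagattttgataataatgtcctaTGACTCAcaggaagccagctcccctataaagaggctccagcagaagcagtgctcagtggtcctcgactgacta
Marcksl1: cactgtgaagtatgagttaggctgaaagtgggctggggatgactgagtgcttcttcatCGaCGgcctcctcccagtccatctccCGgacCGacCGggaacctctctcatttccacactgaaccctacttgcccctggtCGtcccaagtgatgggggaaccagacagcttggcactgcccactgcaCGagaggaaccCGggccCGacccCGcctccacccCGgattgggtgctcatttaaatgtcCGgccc
Tank, a binding partner of TRAF proteins, and Csrnp1, a nuclear transcription regulator, each had 4 annotated windows, and the letters were counted if any window held them. Sele, the adhesion molecule E-selectin best known from endothelium, had 1 window with a CG ratio of 0.10. Marcksl1, an actin-binding relative of the kinase substrate MARCKS, had 12 CG dinucleotides in its window and a CG ratio of 0.53. The LCG windows of Tank and Csrnp1 had higher ratios, 0.55 and 0.74, so the deposited type did not order these windows by CG ratio. A match of letters is a description of the window and not a measured binding site.

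In chromatin RNA the median highest whole-gene value was 12.1-fold above 0 min, from 5.09-fold to 965-fold. The highest value came at 30 min for 50 genes, at 60 min for 3 and at 120 min for 5. At 120 min the median gene held 51.1% of its highest chromatin value, from 8.66% to 100%, and 8 genes held less than 25%. Class B genes held a median of 21.8% at 120 min and class D genes 100%, which describes how the classes differ and was not tested.

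**Figure D1:**
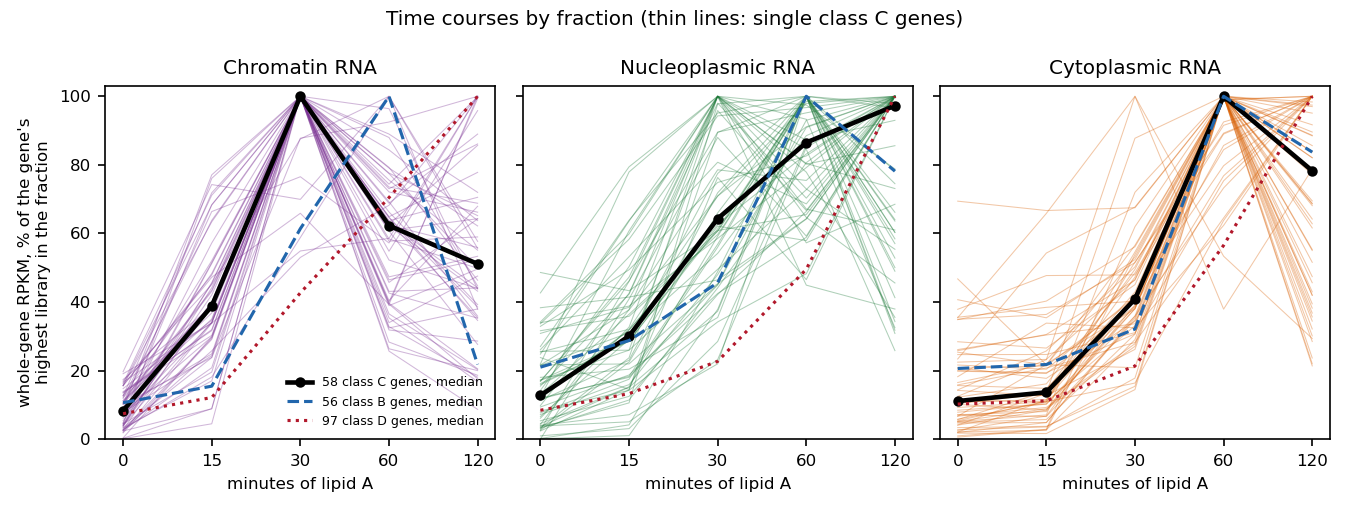
Whole-gene RPKM of each class C gene as a percentage of its highest library in the fraction (vertical axis) against minutes of lipid A (horizontal axis, not to scale), for chromatin, nucleoplasmic and cytoplasmic RNA. Thin lines are single genes and thick lines medians of classes C, B and D. The class C median peaks at 30 min in chromatin RNA and stands at 51.1% there at 120 min, while it is at 97.3% in nucleoplasmic and 78.3% in cytoplasmic RNA. Values are not adjusted for shifts common to all genes.

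The genes that lost most by 120 min in chromatin RNA were Serpinb2, the plasminogen activator inhibitor PAI-2, at 8.66% of its highest value, Skil, a repressor of TGF-beta signalling, at 16.7%, and Zc3h12c, a relative of the RNase Regnase-1, at 17.6%. Those at 100% were Icam1, Ctsc, Niacr1, Mybpc3 and Gpr84. Icam1, the ligand of leukocyte integrins, stood at 2.99, 21.4, 79.2, 83.5 and 90.3 RPKM at 0, 15, 30, 60 and 120 min. Csrnp1 stood at 0.42, 6.71, 23.1, 9.15 and 4.73 RPKM at the same times. Pde4b, a cyclic AMP phosphodiesterase, stood at 0.71, 5.72, 27.5, 17.1 and 11.9 RPKM. Icam1 was thus highest in the last library, whereas Csrnp1 and Pde4b were highest at 30 min and still above their resting level at 120 min.

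Chromatin log2 ratios over whole genes were taken with 0.5 RPKM added. The smallest belonged to Mybpc3, a sarcomere protein, H2-Q7, a class I histocompatibility gene, and Htra4, a serine protease. Each of the 3 stayed at or below 1.21 RPKM in chromatin RNA, where the added 0.5 RPKM shrinks ratios. Without it the smallest fold was that of Zc3h12a, 5.09, while Htra4 went from 0.025 to 1.05 RPKM. H2-Q7, H2-Q8 and Bcl2a1b have near-identical relatives, and how reads with several matches were counted is not given in the sources used here. Very large ratios rested on few resting reads: Serpinb2 had 2 reads at 0 min and a ratio of 965 (95% counting interval 267 to 7977), and Icam4 had 2 reads and a ratio of 314 (86.6 to 2600). With 0.5 RPKM added, 24 genes were first past 4-fold at 15 min and had a median length of 11739 bases. The 22 first past it at 30 min had one of 19265 bases, with ranges that overlapped. Another 9 genes did not pass 4-fold on this measure.

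The exon table held 56 of the 58 genes, 51 of them by the same RefSeq transcript. Skil, Rasgef1b, Ralgds, Serpinb2 and Pde4b were matched by symbol to another transcript. In that table the change was the log2 ratio of RPKM + 0.5 to the 0 min library of the fraction. Genes that never reached 1 RPKM in a fraction were left out there, and 4-fold was the call. In chromatin RNA 45 of 56 genes were higher by 4-fold at some time, beside a background of 6.51% of 8881 genes. Since the class was treated as resting on chromatin values, nothing is read from that count. In nucleoplasmic RNA 35 of the 53 genes that passed were higher by 4-fold, beside a background of 4.84% of 9317. In cytoplasmic RNA 39 of the 49 that passed were higher, beside 4.48% of 9239. In every fraction 0 of these genes were lower by 4-fold, beside backgrounds of 3.91%, 2.81% and 1.88%. Passing 1 RPKM favours genes that became high, and Fabp3, Lrrc63 and Mybpc3 did not pass in nucleoplasmic RNA, nor these genes with Gm614, H2-Q8, Htra4 and Icam4 in cytoplasmic RNA.

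The median log2 ratio was high first in chromatin RNA and later in the other fractions. In chromatin exons it was 1.20, 2.64, 2.09 and 2.14 at 15, 30, 60 and 120 min. In nucleoplasmic RNA it was 0.20, 1.51, 2.38 and 2.39, and in cytoplasmic RNA 0.10, 1.36, 2.78 and 2.28. Over all genes the medians lay between -0.47 and -0.11 in chromatin, between -0.47 and -0.07 in nucleoplasmic and between -0.49 and 0.39 in cytoplasmic RNA, with 0.39 at 60 min and -0.49 at 120 min. Relative to those shifts the members' medians at 120 min were 2.86 in nucleoplasmic and 2.77 in cytoplasmic RNA.

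**Figure D2:**
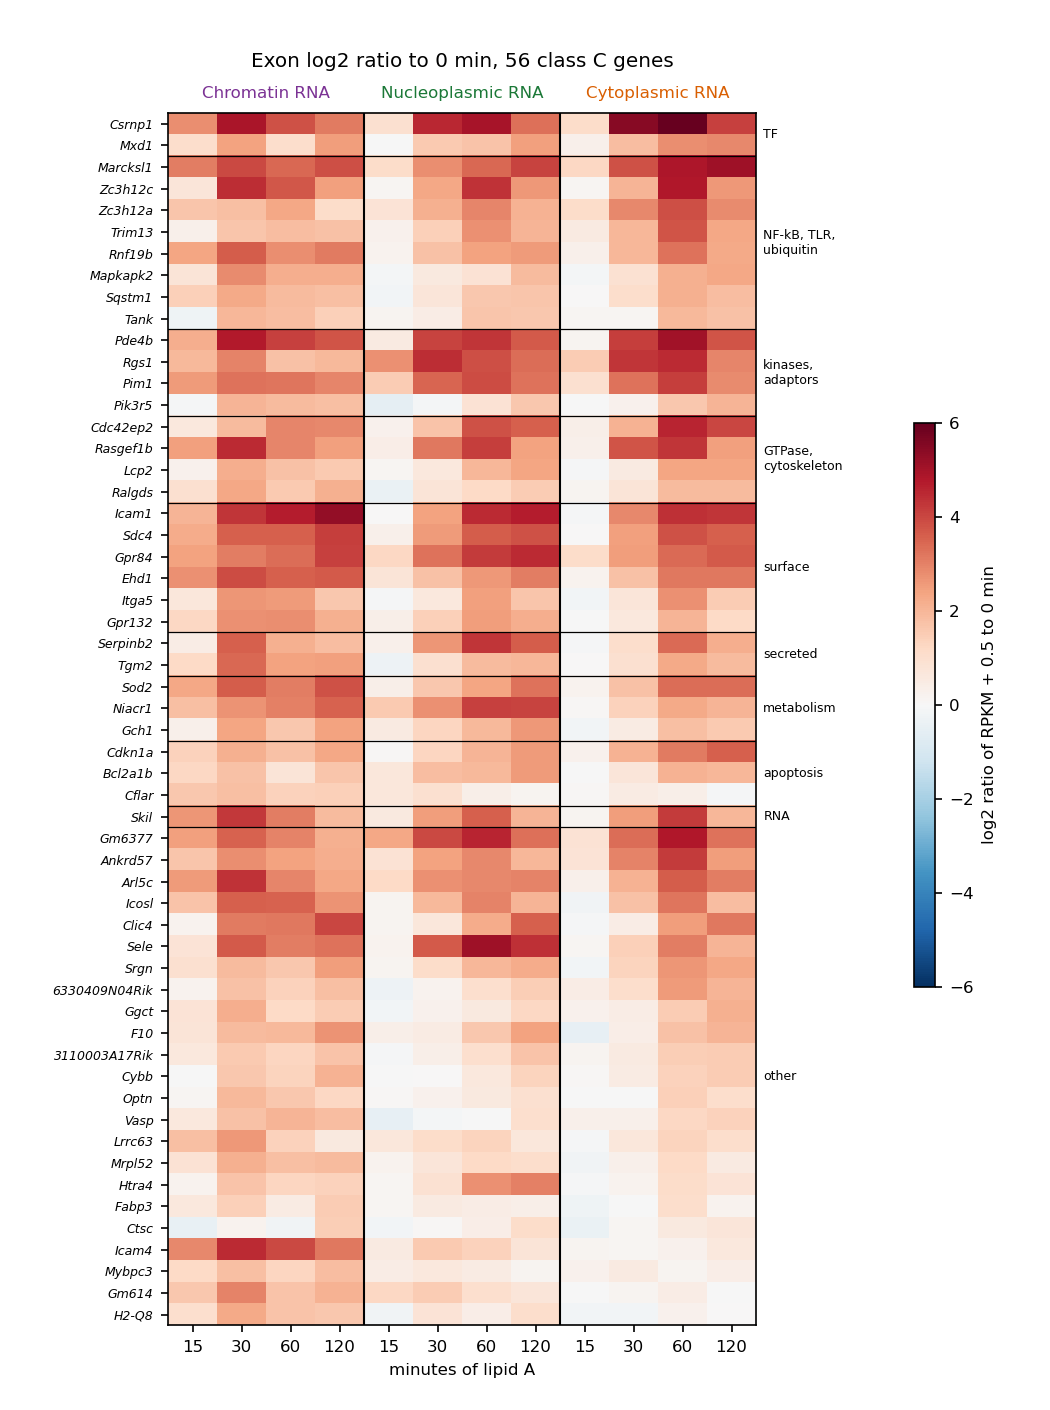
Log2 ratio of exon RPKM + 0.5 to the 0 min library of the same fraction (colour, red higher and blue lower) for the 56 class C genes of the exon table (rows, grouped by role and ordered by their highest cytoplasmic ratio) at 15 to 120 min in each fraction (columns). Red appears first in chromatin RNA at 15 to 30 min and last in cytoplasmic RNA, where Csrnp1 has the highest ratio of 6.17 and Cflar stays at 0.49 or below.

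Among transcription regulators, Csrnp1 had the highest cytoplasmic log2 ratio of all members, 6.17. Its cytoplasmic exon RPKM was 0.64, 1.92, 49.7, 81.9 and 18.9 at 0, 15, 30, 60 and 120 min, and its nucleoplasmic RPKM 1.05, 2.4996, 34.998, 46.4 and 14.7. It was thus high at 30 and 60 min in both compartments and down to 23.1% of its cytoplasmic maximum at 120 min. Mxd1, which competes with Myc for their partner Max, stood at 3.11, 4.004, 12.6, 24.3 and 26.2 RPKM in cytoplasmic RNA and was still at its highest at 120 min.

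Of 8 regulators of NF-kappaB, Toll-like receptor signalling and ubiquitin, 7 were higher by 4-fold in cytoplasmic and 5 in nucleoplasmic RNA. Marcksl1, which was put in this list, had cytoplasmic values of 3.77, 9.76, 60.6, 123 and 146 RPKM, a log2 ratio of 5.10. Zc3h12c was at 2.44, 2.64, 11.4, 81.2 and 17.5 RPKM (4.80), so that its value at 60 min stood far above those of the other libraries. Zc3h12a, Regnase-1, which degrades cytokine mRNAs, was at 1.62, 4.08, 15.4, 31.0 and 14.6 RPKM (3.89). Both Zc3h12 genes were past their maximum at 120 min, while Marcksl1 was not. Mapkapk2, the kinase downstream of p38, and the autophagy receptor gene Sqstm1 started high, at 62.6 and 161 RPKM, and had cytoplasmic log2 ratios of 2.34 and 2.15. Tank at 1.94 was the member of this list under 4-fold, and it passed at 2.27 relative to the common shift.

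The signalling enzymes and adaptors were higher by 4-fold in cytoplasmic RNA in 4 of 4 cases. Pde4b was at 0.75, 0.91, 21.3, 40.1 and 16.8 RPKM there (log2 ratio 5.02). Rgs1, which speeds GTP hydrolysis by G proteins, was at 5.31, 16.4, 112, 128 and 43.9 RPKM (4.47) and was already highest at 30 min in nucleoplasmic RNA, at 144 RPKM. The kinase gene Pim1 had a log2 ratio of 4.16, and Pik3r5, a regulatory subunit of phosphoinositide 3-kinase gamma, one of 2.05. Of 4 small GTPase and cytoskeleton genes, 3 were higher by 4-fold in both cytoplasmic and nucleoplasmic RNA. Ralgds, a Ral exchange factor, was the one under 4-fold, at 1.92 and 1.54, and the adaptor gene Lcp2 was at 2.35 and 2.39. Cdc42ep2, an effector of Cdc42, was at 0.36, 0.58, 3.19, 19.8 and 13.1 RPKM in cytoplasmic RNA (4.57). Rasgef1b, an exchange factor for small GTPases, was at 16.6, 20.7, 233, 338 and 94.5 RPKM (4.30). Cdc42ep2 rested on 8 reads at 0 min, while Rasgef1b rested on 775.

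The 6 genes put in the cell surface list, Ehd1 among them, were all higher by 4-fold in both nucleoplasmic and cytoplasmic RNA. This list left out other surface genes, such as the adhesion genes Sele and Icam4. Sele was higher by 4-fold in both fractions. Icam4 reached a log2 ratio of 1.59 in nucleoplasmic RNA and did not pass 1 RPKM in cytoplasmic RNA. Icam1 was at 47.6, 48.0, 257, 1053 and 1257 RPKM in nucleoplasmic and at 6.32, 6.06, 49.2, 141 and 134 RPKM in cytoplasmic RNA, log2 ratios of 4.71 and 4.38. Sdc4, the proteoglycan syndecan 4, was at 75.9, 95.2, 447, 961 and 1087 RPKM in nucleoplasmic and at 22.3, 23.0, 123, 324 and 278 RPKM in cytoplasmic RNA. Both genes thus stood above their resting level in every library from 30 min on. Gpr84, a receptor for medium-chain fatty acids, had a nucleoplasmic log2 ratio of 4.49, from 1.16 to 36.8 RPKM at 120 min. Gpr132, another G protein-coupled receptor, had a cytoplasmic log2 ratio of 2.06, and of 1.71, under 4-fold, relative to the common shift.

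Secreted and metabolic members reached 4-fold in part. In cytoplasmic RNA both secreted members passed, Serpinb2 at 3.401 and Tgm2, a protein crosslinking enzyme, at 2.27. Serpinb2 had 1 cytoplasmic read at 0 min, which gives a ratio of 157.5 (27.9 to 6255 from counting error). In nucleoplasmic RNA no read (0) was found unstimulated, against 9.33 RPKM at 60 min, higher by at least 156-fold (taking 3 reads as the resting floor). Sod2, the mitochondrial superoxide dismutase, was at 5.39, 6.30, 19.3, 58.6 and 59.3 RPKM in cytoplasmic RNA (3.34). Gch1, which makes the cofactor of nitric oxide synthase, had 1.79 there and 2.62 in nucleoplasmic RNA.

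Among apoptosis and stress genes, Cdkn1a, the cyclin-dependent kinase inhibitor p21, was at 46.7, 56.4, 199, 410 and 559 RPKM in cytoplasmic RNA (3.57). Bcl2a1b, a relative of the survival protein BCL2, had 2 cytoplasmic reads at 0 min, with a ratio of 14.1 (3.61 to 121.5) and a log2 ratio of 2.10. Cflar, which encodes the caspase 8 inhibitor c-FLIP, stood at 0.99, 1.06, 1.59, 1.39 and 0.90 exon RPKM in cytoplasmic RNA, but over the whole gene its reads there numbered 829 at 0 min and 14476 at 60 min, with a log2 ratio of 3.43. Its exons in the exon table took 0.35% to 3.74% of the cytoplasmic reads of the gene, although they made up 4.4% of its length. The exon values of Cflar therefore describe those exons and not the gene, and the cause was not tested.

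Skil, which was placed in the list of RNA genes although it encodes a repressor protein, stood at 3.38, 3.85, 21.4, 71.1 and 15.1 RPKM in cytoplasmic RNA (4.21). Of the 25 members without a listed role, 10 of the 16 that passed were higher by 4-fold in cytoplasmic and 9 of 20 in nucleoplasmic RNA. Sele went from 0 cytoplasmic reads unstimulated to 3.74 RPKM at 60 min, higher by at least 56.5-fold with the same floor. Its single nucleoplasmic read at 0 min stood against 17.1 RPKM at 60 min, so that the ratio was 1268 (227 to 50121 from counting error). The corresponding log2 ratio of 5.10 was the highest of the members in nucleoplasmic RNA. Gm6377 was at 0.60, 1.47, 10.8, 30.6 and 9.82 RPKM in cytoplasmic RNA (4.83). The lowest cytoplasmic ratios among genes that passed were those of Cflar at 0.49, the protease gene Ctsc at 0.72, Mrpl52 of the mitochondrial ribosome at 1.21 and the actin regulator gene Vasp at 1.39. Optn, an autophagy receptor, at 1.43 and Cybb, the catalytic subunit of the phagocyte NADPH oxidase, at 1.503 were also under 4-fold.

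Resting levels and ratios were set side by side by promoter type. The 31 CpG genes that passed in cytoplasmic RNA had a median of 5.39 exon RPKM at 0 min (0.75 to 160.7) and the 18 LCG genes one of 0.96 (0.0066 to 36.9). The median highest cytoplasmic log2 ratio was 3.14 for CpG and 2.86 for LCG genes, and 24 of 31 and 15 of 18 were higher by 4-fold. In the other fractions the order was the opposite, with 2.54 for CpG and 2.98 for LCG genes in nucleoplasmic and 2.56 and 2.94 in chromatin RNA. The median whole-gene fold, with no pseudocount, was 6.47 for CpG and 16.6 for LCG genes in nucleoplasmic, 10.6 and 16.4 in chromatin, and 8.88 and 9.29 in cytoplasmic RNA. Adding 0.5 RPKM shrinks the ratios of genes with low resting levels, and the LCG genes had the lower median resting level. The resting ranges overlapped, and no difference between promoter types was tested.

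The order of fractions was read for genes higher by 4-fold in both chromatin and cytoplasmic exons, 36 members. The cytoplasmic maximum came later than the chromatin maximum for 23 (63.9%), together for 9 and earlier for 4. The first cytoplasmic value past 4-fold came later for 28 (77.8%), together for 5 and earlier for 3. Over all 356 genes called in both fractions these shares were 26.7% and 43.0%, in class D 8.70% and 50.7%, and in class B 29.6% and 55.6%. In whole-gene chromatin RNA 61 of 97 class D genes were highest at 120 min and 46 of 56 class B genes at 60 min. A gene that is highest in chromatin RNA at 120 min cannot be later elsewhere, and this was so for 10 of the 36 members and 211 of the 356. Timing of the 4-fold call had a similar limit, since no library followed a chromatin call made only at 120 min. Such calls were made for 2 of the 36 members and 131 of the 356. In class D they were made for 16 of 69 genes and in class B for 0 of 27. The shares of 77.8% and 43.0% are therefore not on equal terms. The members were treated as chosen by chromatin values, so their position against the other sets is a description.

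**Figure D3:**
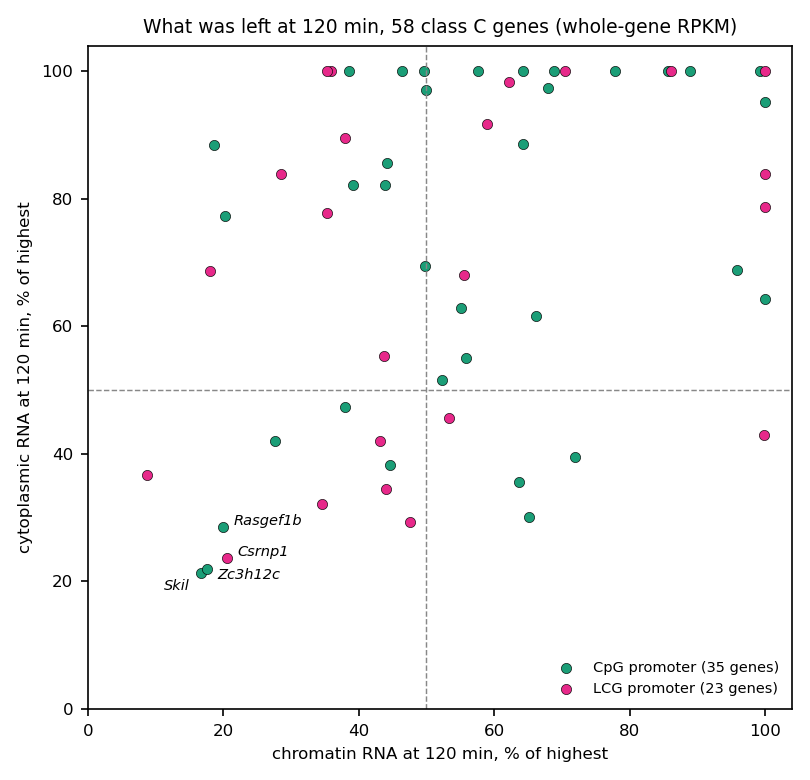
Whole-gene RPKM at 120 min as a percentage of the gene's highest library, in chromatin RNA (horizontal axis) and cytoplasmic RNA (vertical axis), for the 58 class C genes coloured by promoter type, with dashed lines at 50%. Of the 58, 24 lie at or above 50% in both, 17 above it in cytoplasmic RNA alone and 12 below it in both, among them Skil, Zc3h12c, Csrnp1 and Rasgef1b. Values are not adjusted for shifts common to all genes.

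What was left at 120 min was compared between fractions over whole genes and over exons. In cytoplasmic RNA 41 of the 58 genes held at least 50% of their highest whole-gene value, against 29 in chromatin RNA, and 39 held a larger share in cytoplasmic than in chromatin RNA. Over exons this gap was not seen: 34 of 49 genes held at least 50% in cytoplasmic RNA (median 77.8%) and 43 of 56 in chromatin RNA (median 74.0%). None of these shares was adjusted for the common shift. Over all genes the median exon log2 ratio fell from 0.39 at 60 min to -0.49 at 120 min in cytoplasmic RNA. In chromatin RNA it went from -0.47 to -0.34, so the shares of these fractions are not on equal terms. Times after 120 min were not analysed here.

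The share of a gene's reads that lay in exons was followed for 36 members. They had the same RefSeq transcript in the exon and whole-gene values and at least 20 whole-gene reads in each of the 15 libraries. Each gene was also at least 1.5 times as long as its exons. The median share in chromatin RNA was 38.8% at 0 min and 18.9, 24.8, 31.9 and 43.1% at 15, 30, 60 and 120 min. In nucleoplasmic RNA it was 88.4% and then 56.6, 66.8, 83.3 and 89.2%. In cytoplasmic RNA it stayed between 92.9% and 98.5%. Exons made up a median of 13.8% of the length of these genes. The share at 15 min was below that at 0 min for 35 of 36 genes in chromatin and for 36 of 36 in nucleoplasmic RNA, and at 120 min it was above that at 30 min for 36 of 36 in chromatin RNA.

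Srgn, the granule proteoglycan serglycin, showed the dip and return in chromatin RNA with exon shares of 70.4, 13.3, 18.0, 34.6 and 77.4%. Sdc4 had shares of 38.8, 11.1, 21.9, 34.5 and 72.6%, and Icam1 of 61.8, 37.1, 48.0, 60.2 and 82.2%. In all 3 genes the share at 120 min was above the resting share. Longer genes had lower shares over the 36 genes. The Spearman correlation between gene length and exon share ran from -0.83 to -0.62 over the 5 chromatin libraries, from -0.61 to -0.27 over the nucleoplasmic and from -0.55 to -0.28 over the cytoplasmic ones. The part of the gene that is exon correlated with the same shares at 0.70 to 0.91, 0.38 to 0.72 and 0.26 to 0.64. Each value comes from 1 library and the same genes, and no p is given.

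**Figure D4:**
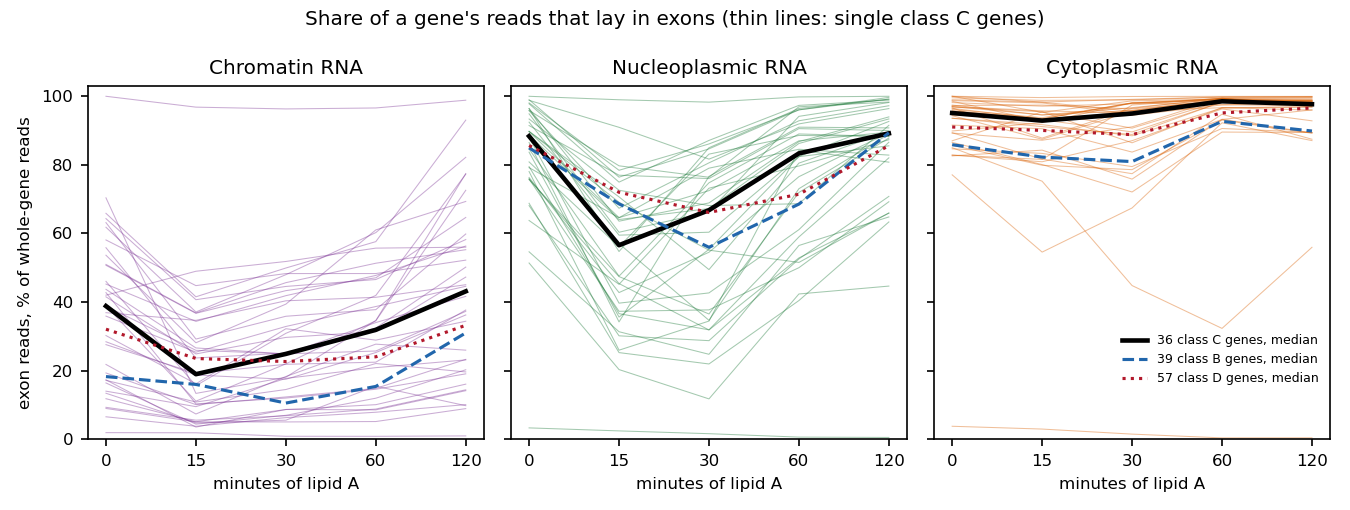
Exon reads as a percentage of whole-gene reads (vertical axis) against minutes of lipid A (horizontal axis, not to scale) in the 3 fractions. Thin lines are the 36 class C genes that met the criteria in the text, and thick lines are the medians of classes C, B and D. The class C median is at 18.9% in chromatin and 56.6% in nucleoplasmic RNA at 15 min and at 43.1% and 89.2% at 120 min, while its cytoplasmic median stays at 92.9% or above. The cytoplasmic medians of classes B and D are lowest at 30 min, at 81.0% and 88.8%.

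The lowest median came at 15 min in class C. Class B genes had their lowest median share at 30 min, 10.5% in chromatin and 55.9% in nucleoplasmic RNA, and class D genes at 30 min as well, 22.6% and 66.1%. Class B genes start from 18.2% in chromatin RNA and have exons over 7.97% of their length, so the levels of classes B and C are not on equal terms, and the difference in timing was not tested. Ctsc departed from the other members: its exon share in cytoplasmic RNA was 85.0, 75.2, 44.8, 32.3 and 55.9%, and in chromatin RNA at 15 min its whole-gene reads numbered 32566 against 9499 at 0 min while its exon reads were 3345 against 4059. The added chromatin reads of Ctsc at 15 min therefore lay outside its listed exons.

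Fractions were compared with limma on log2(RPKM + 0.5) over the 5 times, with time as a term, for the 55 members among 9441 genes tested. The 5 times stand in for replicates, and the labels do not say whether fractions of a time came from the same plates. In nucleoplasmic against chromatin RNA, 12 members were higher by 2-fold at an adjusted p under 0.05, beside a background of 44.1%, and 4 were lower, beside 2.28%. In cytoplasmic against chromatin RNA, 11 were higher, beside 40.7%, and 10 lower, beside 5.14%. The median difference was 0.33 for members and 0.88 for all genes in the nucleoplasmic comparison, and -0.04 and 0.76 in the cytoplasmic one. The class was treated as chosen by high chromatin values, so the members' position against the background is a description only. The calls and adjusted p-values of single members rest in part on those same chromatin values. Values were also rescaled by each library's median shift from the 0 min library of its fraction, which leaves the offset between fractions in place. Then 6 members were higher and 15 lower in cytoplasmic RNA, against 11 and 10 without rescaling. The share of all genes called after rescaling was not computed, so nothing is read from these counts.

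Nucleoplasmic RNA was richest over chromatin RNA for Srgn, with a log2 difference of 2.34 (95% interval 1.87 to 2.82, limma adjusted p = 2.7e-09), Ctsc at 2.11 (1.70 to 2.52, adjusted p = 1.5e-09) and Sdc4 at 1.79 (1.25 to 2.33, adjusted p = 1.3e-06). In exon RPKM Srgn stood at 19.5 to 114 in chromatin, 125 to 582 in nucleoplasmic and 24.9 to 180 in cytoplasmic libraries, so its nucleoplasmic values lay above all of its chromatin values. Icam1 was higher in nucleoplasmic than in chromatin RNA by 1.35 (adjusted p = 5.2e-05) and lower in cytoplasmic RNA by a log2 difference of -1.49 (1.5e-05). Itga5, the alpha 5 chain of the fibronectin receptor, likewise had 1.08 and -1.58 (limma adjusted p = 3.4e-04 and 3.3e-06).

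Cytoplasmic RNA was richest over chromatin RNA for 3110003A17Rik at 1.88 (1.47 to 2.29, limma adjusted p = 7.5e-09), Cdkn1a at 1.86 (1.32 to 2.40, adjusted p = 7.5e-07) and Marcksl1 at 1.77 (1.15 to 2.39, adjusted p = 1.0e-05). It was poorest for Gm614 at -2.92 (adjusted p = 3.2e-10), Icam4 at -2.60 (3.6e-07) and Icosl, the ligand of the T cell costimulator ICOS, at -2.31 (3.9e-09), all from limma. Icosl stood at 1.92, 1.56, 7.56, 21.95 and 8.08 exon RPKM in cytoplasmic RNA and at 5.53, 19.4, 70.9, 70.2 and 38.4 in chromatin RNA. Lower values of Cflar in both comparisons, -1.28 and -1.66, concern the few exon reads described above.

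Icam4, an adhesion molecule of red cells, was seen almost only in chromatin RNA. Its exon RPKM there was 0.048, 3.58, 11.64, 8.06 and 4.35, while no nucleoplasmic value was above 1.07 and no cytoplasmic one above 0.39. Its cytoplasmic reads numbered 1, 2, 2, 3 and 7. On the RefSeq gene order Icam4 lies between Icam1 and Icam5, and Icam1 reached 375 exon RPKM in chromatin RNA while Icam5 reached 1.21. Gm614 likewise had 34, 158, 354, 135 and 170 chromatin exon reads and at most 4 cytoplasmic ones, and lies between Foxo4 and Il2rg. Il2rg, the shared chain of several interleukin receptors, stood at 24.5 to 69.8 exon RPKM in chromatin RNA. Whether reads of a neighbour reached these genes was not tested.

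**Figure D5:**
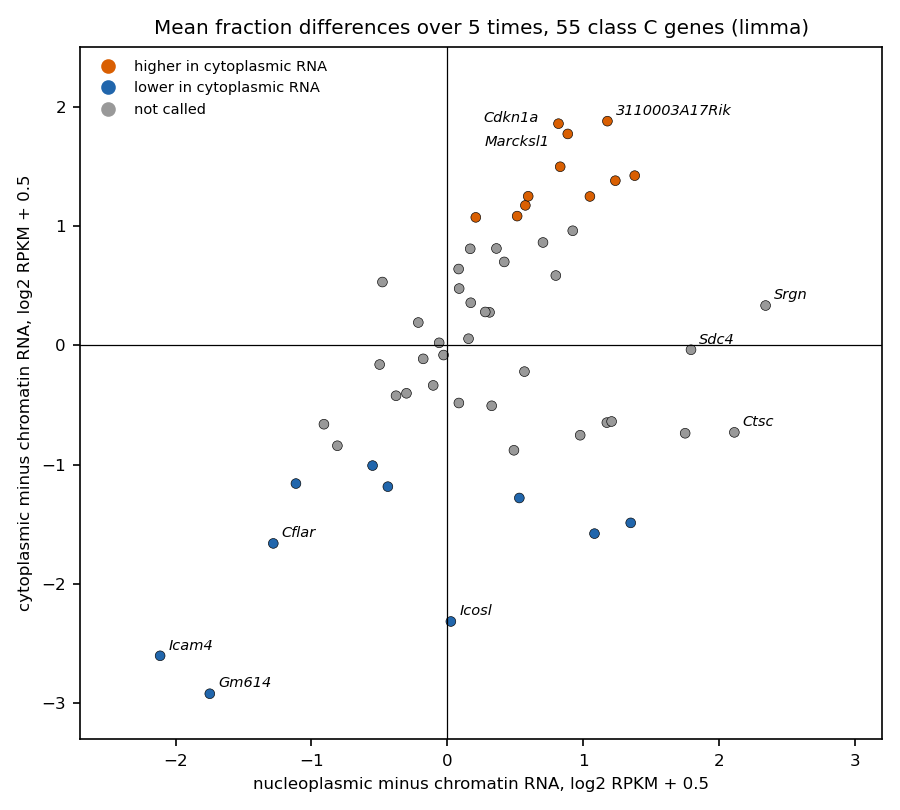
Mean log2 difference of exon RPKM + 0.5 over the 5 times for 55 class C genes, nucleoplasmic minus chromatin RNA (horizontal axis) against cytoplasmic minus chromatin RNA (vertical axis), coloured by the limma call of the cytoplasmic comparison. Both axes subtract the same chromatin libraries. Srgn, Ctsc and Sdc4 lie farthest to the right, at 0.33, -0.73 and -0.04 on the vertical axis, and Icam4 and Gm614 lie at the lower left.

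Late (60 and 120 min) and early (15 and 30 min) stimulated libraries were compared with limma among 9258 genes. In cytoplasmic RNA 0 members passed an adjusted p under 0.05, beside a background of 0.0432% higher, and the smallest adjusted p was 0.18, for Cdc42ep2 at a log2 difference of 3.06. At an unadjusted p under 0.05, 36 of 55 were higher and 0 lower, beside 4.18% of all genes higher, and 53 of 55 differences were positive, beside 39.3%. Classes B and D had 38 of 54 and 77 of 95 genes higher at that level. In nucleoplasmic RNA 0 members passed, beside 0.0864% higher and 0.0108% lower, with a smallest limma adjusted p of 0.066 for Htra4, and 29 of 55 were higher at the unadjusted level, beside 3.67%. Classes B and D had 31 of 54 and 81 of 95 genes higher there. Leaving out the 30 min or the 60 min libraries left 1 early or 1 late library per fraction. The counts of higher members then rose in both fractions. The share of all genes called was not computed for these fits, so nothing is read from that rise. The shift from early to late was not shown to differ between the 2 fractions for any member, with 0 of all 9258 genes past the limma threshold (0 members higher and 1 lower at an unadjusted p under 0.05).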

How the data were processed

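RNA of 3 fractions at 5 times was analysed in 15 libraries, grouped by the labels, with 1 library per group. Ribosomal RNA was depleted and libraries were strand-specific, per the labels' protocols, and reads were aligned with TopHat to mm9, per the submitters' processing notes. How reads were counted, on which annotation and with which strand setting is not given in the sources used here, so antisense and overlapping genes cannot be told apart. The authors deposited RPKM values, per the file headers, in an exon table of 10020 transcripts and in a table of 560 genes with classes and promoter types. No sample label fitted 3 further value columns, which were left unused.

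RPKM values were turned back into whole reads for 100% of genes (tolerance 0.02 reads), and this gave depths, exon shares and exact 95% counting intervals. Lengths in the class table were within 5% of the genomic span of the transcript for 45 of 56 members, so its values were taken as whole-gene values. PCR copies were not marked, so intervals and the floor of 3 reads cover counting error only. Changes were log2 ratios of RPKM + 0.5, which understate the change of low genes. A change of 4-fold was called without a test. limma 3.58.1 in R 4.3.3 used a trended prior, genes at 1 RPKM in at least 3 libraries, Benjamini-Hochberg adjustment and a 2-fold minimum. It was also run on simulated data, which held a step change and no other change over time. That run therefore does not show how the fits do on these data. The limma p-values use the scatter between unreplicated times. Python 3.11.15 did the rest.

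The members and the lists of roles and markers were chosen with earlier results of these data known. Genes were named one by one if they were among the 8 highest in cytoplasmic or nucleoplasmic RNA, the 4 lowest in cytoplasmic RNA, the 3 highest or lowest in chromatin RNA, or the 3 largest in each direction of a limma comparison, and other names follow their role lists. Genes singled out for exon share or reads outside exons were chosen after their values were seen. Alternatives were pseudocounts of 0.1 and 1 RPKM, no minimum, rescaling by the median of all genes, the other table, 1 time left out, no trend, at least 100 reads for exon shares, and all class C genes.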

Additional observations from a re-analysis of the deposited data

How the results depend on the processing

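Of 129 alternative values, 108 stayed within 1.5 times the reported count or, for medians, within the median counting error of a gene. The other 21 moved. Counts cannot change direction, and a count of 0 that stayed 0 was taken as unchanged. The share of all genes called was not computed for the alternatives, so their counts describe the members only. Among the 108 were members first past 4-fold later in cytoplasmic RNA, 39 when rescaled against 28. Members lower in cytoplasmic than chromatin RNA, 15 when rescaled against 10, were also among them. With all 98 class C genes in place of 58, more genes entered and the following counts rose. Higher by 4-fold were 85 in chromatin, 73 in nucleoplasmic and 76 in cytoplasmic RNA. In cytoplasmic RNA 41 genes were highest later and 51 first past 4-fold later, and 24 were higher in nucleoplasmic than chromatin RNA. The medians at 120 min were 2.76 in nucleoplasmic and 2.78 in cytoplasmic RNA, against 2.39 and 2.28 for the members. The genes set aside by name thus raised these medians. With all class C genes the exon share in chromatin RNA at 120 min was 51.0%. Rescaled by the median of all genes, the medians at 120 min were 2.86 in nucleoplasmic and 2.77 in cytoplasmic RNA, and 6 members were higher in cytoplasmic than chromatin RNA. A pseudocount of 0.1 RPKM gave 2.59 in cytoplasmic RNA, and the class table gave 1.92 in nucleoplasmic RNA. Requiring 100 reads, with fewer genes, gave exon shares of 37.6% in chromatin and 98.3% in cytoplasmic RNA, and the cause was not tested. A pseudocount of 1 RPKM gave 1 member higher late in nucleoplasmic RNA, and the cause was not tested. With 1 time left out, members higher late ranged from 0 to 7 in cytoplasmic and from 0 to 5 in nucleoplasmic RNA, and 0 were lower. Members higher than in chromatin RNA ranged from 8 to 14 in cytoplasmic and from 9 to 16 in nucleoplasmic RNA, and those lower from 8 to 11 and from 3 to 5. No paired analysis was possible because every fraction and time had 1 library and no replicate number. The comparison of fractions already carried time as a term. Low depth limits genes with few resting reads, such as Sele, Serpinb2 and Icam4.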
